A study of Oryza sativa with 12 samples.

Results

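Aquaporins are membrane channels that let water, and in some cases small neutral solutes, cross cell membranes. Plants carry several subfamilies: plasma membrane intrinsic proteins (PIP1 and PIP2), tonoplast intrinsic proteins of the vacuolar membrane (TIP), Nod26-like intrinsic proteins (NIP), some of which carry silicon or boron, and small basic intrinsic proteins of internal membranes (SIP). PIP2 proteins are the main water channels of the plasma membrane, and work in maize showed that PIP1 proteins can depend on a PIP2 partner to reach it. Rice genes were taken as members when a symbol or synonym in the RefSeq gene table was a PIP, TIP, NIP or SIP name with a subfamily and a member number, which gave 28 genes. A probe set of their own represented 25 of them, among 17905 genes with one: 3 PIP1, 7 PIP2, 8 TIP, 5 NIP and 2 SIP genes, on 31 probe sets. PIP2-3, NIP1-2 and NIP3-3 had no probe set listed for them alone and were not analysed here.

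Affymetrix rice genome arrays were used to measure leaf RNA of rice (Oryza sativa) in 4 groups of 3 arrays. The groups were Azucena control, Azucena drought, Bala control and Bala drought and the labels give no other treatment. Azucena and Bala are cultivars, here grown in a flooded field. Control plots stayed flooded, and drought plots had no water from day 59 after sowing until leaves were collected on day 83, after 24 days. Each replicate pooled leaf middles from 1 field block, with drought bags drawing on 2 plots per block and control bags on 1, so p-values cover the spread between blocks of 1 field and season.

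Median signals ran from 9.6 to 12.4 across the 12 arrays, and the highest of 33 negative control probe sets, used here as the background of an array, ran from 13.4 to 28.3. The number of arrays, 3 per group, limits precision. The 3′ to 5′ signal ratio of actin, a sign of RNA quality, was 6.77 to 7.51 in Azucena control, 6.56 to 6.74 in Azucena drought, 5.68 to 8.01 in Bala control and 6.15 to 6.93 in Bala drought. The same ratio for GAPDH separated the cultivars, at 5.25 to 6.90 in Azucena and 1.31 to 2.26 in Bala. It also separated Bala control (1.88 to 2.26) from Bala drought (1.31 to 1.34), while the Azucena groups overlapped. Its part in the cultivar differences, the Bala drought response and the interaction was not tested. Whether probe sets bind RNA of both cultivars equally well was not tested either. A cultivar difference here is thus one of signal. The leaf label was checked on 8 mesophyll genes (photosynthesis and photorespiration), of which 7 exceeded background on every array. Of 4 root marker genes 3 exceeded it on no array.

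**Figure D1:**
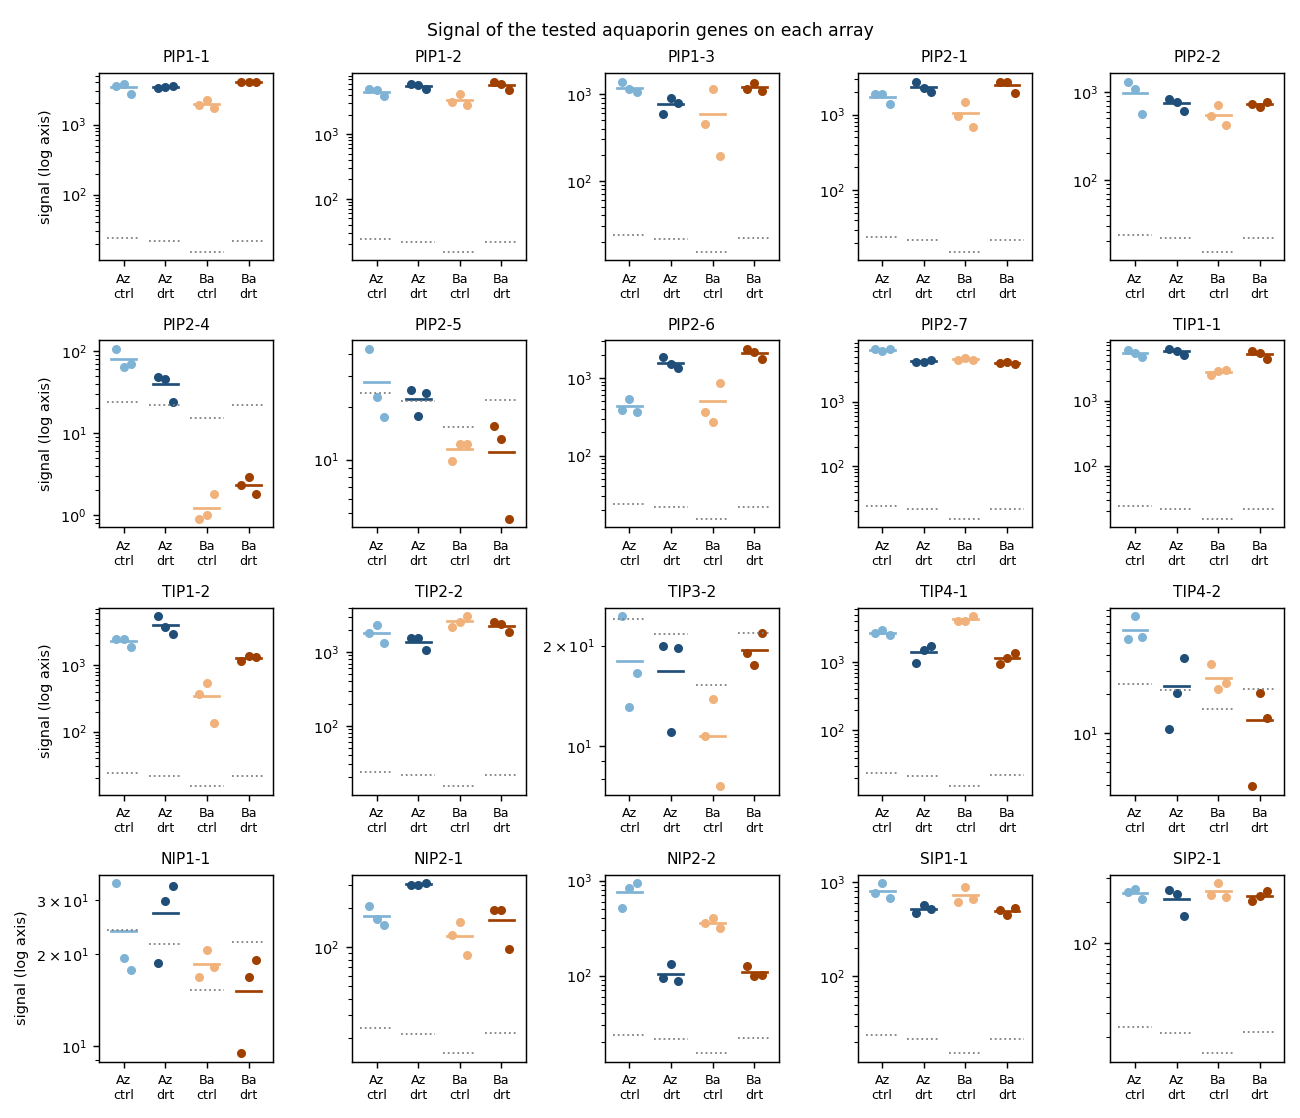
MAS5 signal on a log axis (vertical) on each array for the aquaporin genes in the 4 groups (horizontal), with dots for arrays, a bar for the group mean and a dotted line for the mean background of the group. PIP2-6 rose and NIP2-2 fell under drought in both cultivars, and PIP2-4 was above background on the 6 Azucena arrays and on no Bala array.

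Of the 25 aquaporin genes, 20 exceeded their array's median signal on at least 3 arrays and were tested with limma on log2(signal + 16), and a gene was called at an adjusted p under 0.05. The 5 that did not pass, PIP2-8, TIP2-1, TIP3-1, NIP3-1 and NIP4-1, were at or below background on all 12 arrays on their own probe sets. NIP3-1 is also listed as DTE1 and is known as a boron channel, and TIP3 genes are known from seed vacuoles. Their highest signals were 9.5, 12.2, 11.3, 9.2 and 7.9, in the same order. A probe set listed for TIP3-1 together with another gene read 12.5 to 27.5 and exceeded background on 2 of 12 arrays, and it was called in no comparison. TIP3-2 passed the filter but exceeded background on 1 of 12 arrays, with signals from 7.6 to 24.5. NIP1-1 exceeded it on 5 of 12 arrays, with signals from 9.5 to 34.1. Neither TIP3-2 nor NIP1-1 was called in any of the 5 comparisons.

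Under drought, 2 aquaporin genes rose in Azucena, PIP2-6 and NIP2-1, and 6 fell, PIP2-4, PIP2-7, TIP4-1, TIP4-2, NIP2-2 and SIP1-1. The share called among all 15605 genes tested was 35.6%, 18.2% for rises and 17.4% for falls, and the 40% of aquaporin genes called lies near it. In Bala 7 rose, the 3 PIP1 genes, PIP2-1, PIP2-6, TIP1-1 and TIP1-2, and 3 fell, TIP4-1, NIP2-2 and SIP1-1. In Bala the share over all genes was 41.4%, 27.4% higher and 14.1% lower, against 50% of the aquaporin genes. The median log2 change over the 20 genes was -0.16 in Azucena, beside 0.03 over all genes tested, and 0.20 in Bala, beside 0.18 over all genes. PIP2-6 rose, and TIP4-1, NIP2-2 and SIP1-1 fell, in both cultivars, and no aquaporin gene was called in opposite directions in the 2 cultivars. In bulk leaf samples such as these, fewer cells of a type and less RNA per cell cannot be told apart.

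**Figure D2:**
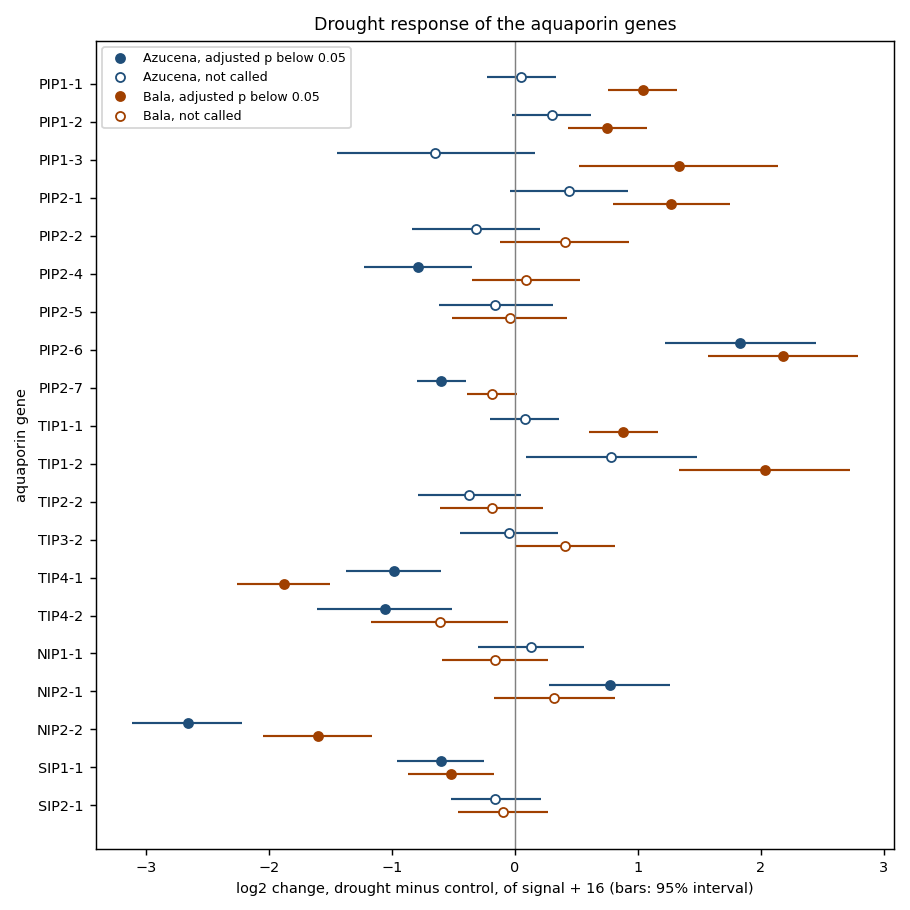
Log2 change under drought (horizontal axis, drought minus control on the log2(signal + 16) scale) of the 20 tested aquaporin genes in Azucena and Bala, with 95% confidence intervals from limma. Intervals of the 3 PIP1 genes lie above 0 in Bala and include 0 in Azucena, and those of NIP2-2 and TIP4-1 lie below 0 in both.

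The drought response differed between the cultivars for 5 aquaporin genes by the interaction term, that is, the log2 change in Bala minus that in Azucena. It was higher in Bala for PIP1-1, PIP1-3, TIP1-1 and NIP2-2 and lower for TIP4-1. Over all genes 15% were called in this comparison, 9.82% higher and 5.13% lower, against 25% of the aquaporin genes, and the median was 0.45 beside 0.15 over all genes. Between the control groups 11 aquaporin genes were lower in Bala (PIP1-1, PIP1-3, PIP2-1, PIP2-2, PIP2-4, PIP2-5, PIP2-7, TIP1-1, TIP1-2, TIP4-2 and NIP2-2) and TIP4-1 was higher. The share over all genes there was 33.4%, 10.7% higher and 22.7% lower, against 60% of the aquaporin genes, with a median of -0.56 beside -0.11 over all genes. Between the drought groups PIP2-4, TIP1-2 and NIP2-1 were lower in Bala and TIP2-2 was higher, which is 20% of the genes tested against 25.7% over all genes, 12% higher and 13.7% lower, and the median was -0.05 beside 0.03. PIP2-4 passed the filter through the Azucena arrays alone, so its calls between cultivars were built in by that filter and are a description. Without PIP2-4, a count added after the values were seen, 10 of 19 genes were lower and 1 was higher in control (57.9%), and 2 were lower and 1 was higher in drought (15.8%). The Bala drought response, the interaction and the control difference share the Bala control arrays and are not independent of each other. Without Bala control array 3, 6 of the 20 genes in place of 12 were called between the control groups. Over all 15605 genes, 1146 were then higher and 3245 lower, so the aquaporin share lay near that over all genes.

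The split of calls over all genes depended on how arrays were scaled. Of the genes called in Bala under drought, 66.0% rose with the values as deposited and 51.6% after quantile normalization, and the median of all genes moved from 0.18 to 0.04. In the interaction the share of higher calls was 65.7% and 51.5%, and in the control difference it was 32.1% and 50.3%. With arrays centred on spiked-in control transcripts it was 61.2% in place of 51.0% in Azucena and 36.3% in place of 46.6% in the drought difference. The split also depended on Bala control array 1, which had the lowest median signal, 9.6. Without that array 57.3% of the genes called in Bala rose, and the median of all genes was 0.096. The share of higher calls was then 55.1% in the interaction and 43.1% in the control difference. The aquaporin split moved less: in Bala 7 genes rose and 4 fell after quantile normalization, against 7 and 3, and no called aquaporin gene changed direction under the 3 scalings tried. Quantile normalization ended the calls of the PIP1-3 interaction (adjusted p = 0.053) and of the control differences of PIP2-2 (0.067), PIP2-5 (0.07) and TIP4-2 (0.063). Centring on the median ended that of PIP2-5 (0.066), and the spike-in centring ended the NIP2-2 interaction (0.053). After quantile normalization 4 of 20 aquaporin interactions were called, beside 1533 higher and 1442 lower over all 15605 genes. The aquaporin share of interaction calls then lay near that over all genes.

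The 3 PIP1 genes rose together in Bala, and none of them was called in Azucena. Among the Bala control arrays, array 2 read highest and array 3 lowest for each of them, and for PIP2-1, PIP2-2, TIP1-2 and NIP2-1. By contrast, TIP1-1, TIP2-2, TIP4-1 and PIP2-6 read highest on array 3. Genes that share such a pattern are not independent observations, and its cause was not tested. PIP1-1, also listed as RWC1, read 3574.8, 3857.6 and 2731.9 on the Azucena control arrays and 3369.8, 3472.2 and 3558.3 under drought. The Bala readings were 1913.9, 2267.4 and 1744.2 in control and 4035.1, 4015.0 and 4090.9 under drought. The Bala control arrays were thus the lowest of the 12, and the Bala drought arrays the highest. The log2 change was 1.04 ± 0.13 (SE, n = 3 per group) in Bala (adjusted p = 1.2e-05) and 0.05 ± 0.13 in Azucena (adjusted p = 0.84), with an interaction of 0.99 ± 0.19 (adjusted p = 0.0024). PIP1-1 was lower in Bala than in Azucena by 1.7-fold in control (log2 -0.77, adjusted p = 0.00026), and under drought the difference was 0.22, with a 95% interval from -0.06 to 0.50.

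PIP1-2 read 4928.2, 4721.1 and 3835.8 in Azucena control and 5879.4, 5665.3 and 5009.2 in Azucena drought. Bala values were 3156.7, 4209.3 and 2846.0 in control and 6428.1, 5933.2 and 4756.5 in drought. Drought arrays stood above control arrays without overlap in both cultivars, but the change was called in Bala alone (0.75 ± 0.15, adjusted p = 0.001) and was 0.30 ± 0.15 in Azucena (adjusted p = 0.16). The difference between these responses was 0.45, with a 95% interval from -0.00 to 0.90 (adjusted p = 0.20), so it was not shown to differ between cultivars. The control difference of -0.41 missed the threshold (adjusted p = 0.052) and passed it, among other settings, without Azucena control array 3 (adjusted p = 0.03), Bala control array 2 (0.0082) or Bala drought array 3 (0.038).

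PIP1-3, also listed as RWC3, had the widest spread of the PIP1 genes. It read 1388.4, 1134.3 and 1045.5 in Azucena control and 594.2, 896.5 and 787.1 in Azucena drought. For Bala the signals were 447.0, 1133.9 and 193.3 in control and 1144.5, 1351.7 and 1096.5 in drought. Bala control array 2 lay within the range of the drought arrays, and the other control arrays lay well below it. PIP1-3 rose by 1.33 ± 0.38 in Bala (adjusted p = 0.013). The change in Azucena was -0.65 ± 0.38 and was not called (adjusted p = 0.24), though its drought arrays lay below its control arrays without overlap. All 4 groups share 1 estimate of spread, and Bala control had the largest SD, 487. The interaction was 1.98 ± 0.54 (adjusted p = 0.025), and the control difference was -1.31 ± 0.38 (adjusted p = 0.015). The sizes of all 3 depended on which Bala control array was left out. Without Bala control array 3 the Bala change was 0.73 (adjusted p = 0.062), the control difference -0.71 (0.078) and the interaction 1.37 (0.03). Without Bala control array 2 they were 1.96 (3.3e-05), -1.94 (3.1e-05) and 2.60 (0.00018), all called. Other omissions ended calls with little change in size. Without Bala control array 1 the Bala change was 1.30 (0.054), the interaction 1.95 (0.069) and the control difference -1.29 (0.058). Without Bala drought array 2 the Bala change was 1.24 (0.052) and the interaction 1.89 (0.065), and without Azucena drought array 1 the interaction was 1.81 (0.054).

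Among PIP2 genes, PIP2-6 had the largest rise. It read 385.2, 536.8 and 369.0 in Azucena control and 1848.5, 1514.4 and 1336.9 in Azucena drought. In Bala the signals were 367.6, 271.1 and 866.8 in control and 2371.2, 2135.8 and 1749.7 in drought. Every drought array stood above every control array, and Bala control array 3 was the highest control. The rise was 3.56-fold in Azucena (log2 1.83 ± 0.29, adjusted p = 0.00013) and 4.54-fold in Bala (2.18 ± 0.29, adjusted p = 1.9e-05). The difference between the 2 responses was 0.35, with a 95% interval from -0.52 to 1.21, and no cultivar difference was called in control or drought.

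PIP2-7 moved the other way in Azucena. It read 6528.2, 6176.5 and 6580.1 in Azucena control and 4169.7, 4106.8 and 4415.0 in drought. In Bala it read 4388.9, 4779.0 and 4468.5 in control and 4036.7, 4132.2 and 3811.5 in drought. The Azucena control arrays stood above all 9 others. PIP2-7 fell by 0.60 ± 0.10 in Azucena (adjusted p = 0.00014), and the change in Bala was -0.19 ± 0.10 (adjusted p = 0.16). The interaction was 0.42 (adjusted p = 0.057), and Bala was lower than Azucena in control by 0.50 (log2 -0.50, adjusted p = 0.00066).

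PIP2-2 is read here by a probe set whose name marks it as possibly shared with other genes. It read 1309.4, 1084.0 and 557.1 in Azucena control and 842.6, 773.3 and 616.4 in drought. The Bala readings were 535.7, 704.7 and 419.0 in control and 726.0, 671.5 and 771.4 in drought. Groups overlapped in every comparison, and neither drought response was called (-0.32 in Azucena, 0.41 in Bala). The control difference of -0.76 ± 0.25 (adjusted p = 0.029) lost its call when any of Azucena control array 1 (0.15) or 2 (0.11) or Bala control array 1 (0.077) or 3 (0.13) was left out. Without Azucena control array 3 the Azucena change of -0.68 (adjusted p = 0.024) and an interaction of 1.08 (0.019) were called. The second PIP2-2 probe set was at background in every group.

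PIP2-1, PIP2-4 and PIP2-5 lie close together in the RefSeq gene order, with no annotated gene between PIP2-1 and PIP2-5 and 1 between PIP2-5 and PIP2-4. PIP2-4 separated the cultivars completely. It read 105.6, 63.5 and 69.3 in Azucena control and 48.2, 45.8 and 24.1 in Azucena drought. Bala values were 0.9, 1.0 and 1.8 in control and 2.3, 2.9 and 1.8 in drought. All 6 Azucena arrays were above background and all 6 Bala arrays below it, and it passed the filter through the Azucena arrays alone, so a cultivar difference was built into its being tested. The PIP2-4 signal was at least 5.13-fold lower in Bala control (adjusted p = 9.2e-08) and at least 1.73-fold lower in Bala drought (2.2e-05). The bound sets the bright group against the background of the dim one. Whether its probes bind RNA of both cultivars equally well was not tested. In Azucena PIP2-4 fell by 0.79 ± 0.21 (adjusted p = 0.0089), a call lost without Azucena control array 1 (0.052) or Azucena drought array 3 (0.058).

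PIP2-5 was dim and exceeded background on 4 of 12 arrays. It read 42.6, 22.7 and 17.5 in Azucena control and 24.8, 17.6 and 24.0 in drought. For Bala the signals were 9.8, 12.3 and 12.3 in control and 15.6, 13.1 and 4.6 in drought. No Bala array reached the lowest Azucena array. Azucena control array 3 was below its own background of 24. Neither drought response was called, and the control difference, between groups at or near background, was -0.63 ± 0.22 (adjusted p = 0.042). That call was lost without any of 6 arrays, with adjusted p = 0.21 without Azucena control array 1, where the log2 difference was -0.39, and 0.058 without Azucena control array 2. Without Bala control arrays 1, 2 and 3 in turn it was 0.11, 0.071 and 0.078, and without Bala drought array 2 it was 0.051.

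For PIP2-1 the 3 probe sets disagreed. The brightest, which stands for the gene, read 1878.5, 1883.9 and 1369.6 in Azucena control and 2715.2, 2276.6 and 1975.2 in drought. In Bala the signals were 947.1, 1488.4 and 682.0 in control and 2721.8, 2665.8 and 1928.2 in drought. Drought arrays lay above control arrays in both cultivars, and the rise was called in Bala (1.27 ± 0.23, adjusted p = 0.00033) and not in Azucena (0.44 ± 0.23, adjusted p = 0.17). The interaction of 0.83 (adjusted p = 0.11) was called without Bala control array 2 (1.12, adjusted p = 0.012). The control difference of -0.77 ± 0.23 (adjusted p = 0.017) was lost without Azucena control array 1 (0.055) or 2 (0.065) or Bala control array 1 (0.058) or 3 (-0.51, adjusted p = 0.10).

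A second PIP2-1 probe set, whose name marks possible sharing with other genes, gave 1.46 in Bala and 0.47 in Azucena. The third read 284.5, 252.4 and 259.8 in Azucena control and 112.3, 133.0 and 132.6 in Azucena drought. In Bala the third read 22.3, 22.7 and 28.4 in control and 9.8, 11.1 and 14.6 in drought. It fell under drought in both cultivars, by 0.99 ± 0.16 in Azucena (adjusted p = 0.00014) and by at least 1.12-fold in Bala (adjusted p = 0.014). Bala was 6.97-fold lower in control (log2 -2.80, adjusted p = 3.9e-10) and at least 5.77-fold lower in drought (adjusted p = 4e-09), without overlap. A probe set listed for PIP2-1 and PIP2-5 together moved with the first 2 probe sets, rising by 1.35 in Bala (adjusted p = 0.00056), with 0.24 in Azucena (adjusted p = 0.55). Rise or fall of PIP2-1 thus depends on the probe set read, and which transcripts each one binds was not tested.

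**Figure D3:**
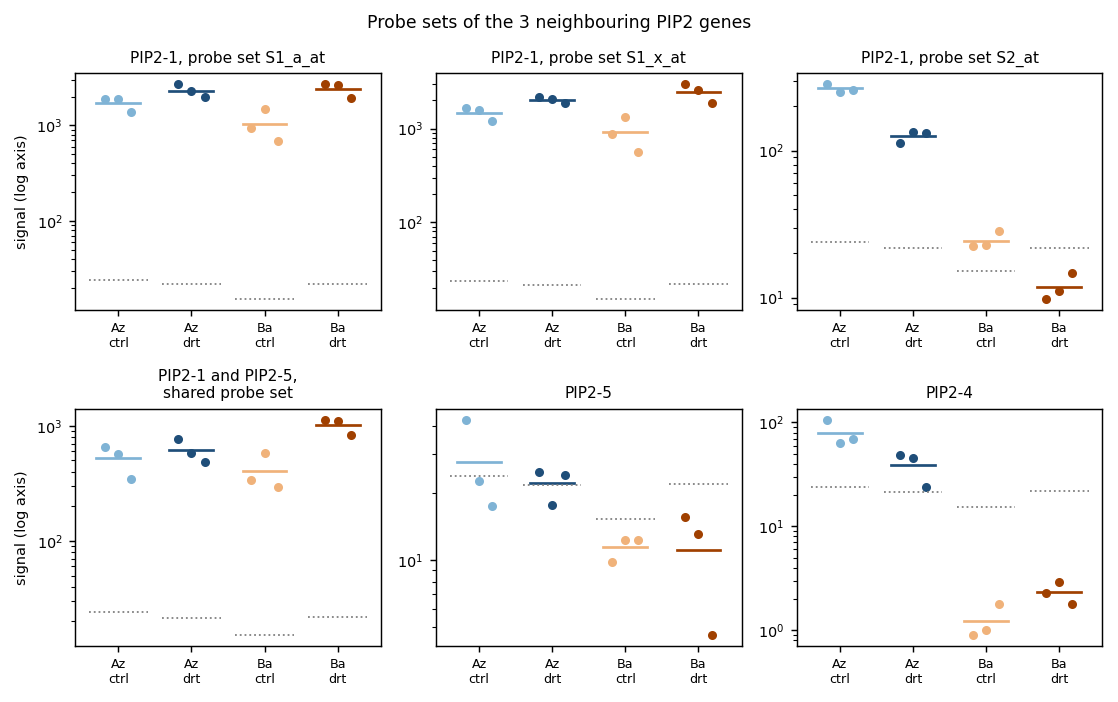
MAS5 signal on a log axis (vertical) on each array in the 4 groups (horizontal) for the probe sets of the neighbouring genes PIP2-1, PIP2-4 and PIP2-5. The brightest PIP2-1 probe set reached 2721.8 in Bala drought, while the third PIP2-1 probe set and PIP2-4 were lower on every Bala array than on any Azucena array.

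Both TIP1 genes rose in Bala. TIP1-1 read 6000.6, 5424.3 and 4671.5 in Azucena control and 6201.2, 5815.2 and 4998.8 in drought. In Bala it read 2481.6, 2859.0 and 2954.0 in control and 5681.0, 5390.9 and 4330.8 in drought. The Bala control arrays stood below all 9 others, which overlapped. TIP1-1 rose by 0.88 ± 0.13 in Bala (adjusted p = 6.8e-05), with 0.08 ± 0.13 in Azucena (adjusted p = 0.71) and an interaction of 0.80 ± 0.19 (adjusted p = 0.01). The second TIP1-1 probe set also rose in Bala (1.08, adjusted p = 0.0038), but its interaction of 0.83 was not called (adjusted p = 0.17). In control Bala was lower by 1.93-fold (log2 -0.95, adjusted p = 3.1e-05), and under drought the difference was -0.15, with a 95% interval from -0.43 to 0.13.

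TIP1-2 had the largest cultivar difference of a gene above background in all groups. It read 2476.8, 2466.9 and 1903.2 in Azucena control and 5460.0, 3723.5 and 2945.3 in drought. The Bala readings were 373.6, 537.8 and 135.9 in control and 1156.0, 1386.8 and 1329.7 in drought. The highest Bala drought array stayed below the lowest Azucena control array. Bala was 7.13-fold lower in control (log2 -2.83 ± 0.33, adjusted p = 3.7e-06) and 3.02-fold lower in drought (-1.59 ± 0.33, adjusted p = 0.0015). TIP1-2 rose 4.07-fold in Bala (2.03 ± 0.33, adjusted p = 0.00014). The Azucena change of 0.78 ± 0.33 was not called (adjusted p = 0.088), though its arrays did not overlap, and it was called without Bala control array 2 (0.041) or 3 (0.0069), which enter the shared estimate of spread. The interaction of 1.24 ± 0.46 (adjusted p = 0.098) was called without Bala control array 2 (1.64, adjusted p = 0.015).

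TIP2-2 was higher in Bala under drought. It read 1799.1, 2334.1 and 1327.4 in Azucena control and 1561.5, 1549.2 and 1057.1 in drought. Bala values were 2222.4, 2540.3 and 3084.5 in control and 2535.8, 2443.0 and 1892.5 in drought. The drought groups did not overlap and the control groups did. The difference was 0.73 ± 0.20 in drought (adjusted p = 0.013), lost without Azucena drought array 3 (0.081) or Bala drought array 1 (0.057) or 2 (0.058). It was 0.54 ± 0.20 in control (adjusted p = 0.052), called without Azucena control array 2 (0.014), Bala control array 1 (0.047), Azucena drought array 3 (0.036) or Bala drought array 3 (0.045). Neither drought response was called, at -0.37 in Azucena and -0.19 in Bala, the first with adjusted p = 0.05 without Azucena control array 3. Its probe set may share probes with other genes.

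TIP4-1 fell in both cultivars. TIP4-1 read 2659.6, 2954.8 and 2515.6 in Azucena control and 969.9, 1511.4 and 1714.8 in drought. For Bala the signals were 3994.9, 4074.5 and 4777.7 in control and 943.7, 1171.7 and 1370.2 in drought. Control and drought arrays did not overlap, the Bala control arrays were the highest of all, and the drought groups overlapped. TIP4-1 fell 1.98-fold in Azucena (log2 -0.98 ± 0.18, adjusted p = 0.00057) and 3.68-fold in Bala (-1.88 ± 0.18, adjusted p = 5.6e-07). The interaction was -0.90 ± 0.26 (adjusted p = 0.032), and it was lost without any of 8 arrays, with adjusted p from 0.05 to 0.088. Those were Azucena control arrays 1 and 3, Bala control arrays 1 and 3, Azucena drought arrays 2 and 3 and Bala drought arrays 1 and 2. The control difference was 0.66 ± 0.18 (adjusted p = 0.011), and without Bala control array 3 it was 0.57 (adjusted p = 0.051). The drought difference of -0.24 was called without Azucena drought array 1 (-0.48, adjusted p = 0.044). The second, dim TIP4-1 probe set also fell, by at least 1.83-fold in Azucena (adjusted p = 0.016) and at least 1.85-fold in Bala (0.0043). Both drought groups of this probe set were at background, so its falls have only lower bounds and it cannot show whether the responses differ. Its control difference of -0.06 was not called (adjusted p = 0.87).

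TIP4-2, whose only probe set may share probes with other genes, was dim and above background on 7 of 12 arrays. It read 53.5, 80.4 and 55.2 in Azucena control and 10.7, 20.6 and 38.0 in drought. In Bala the signals were 34.0, 21.8 and 24.3 in control and 3.9, 20.6 and 13.2 in drought. Within each cultivar all drought arrays lay below all control arrays. The fall was called in Azucena (-1.06 ± 0.26, adjusted p = 0.0056), and in Bala, where the drought group was at background, the fall was at least 1.21-fold and missed the threshold (adjusted p = 0.086), which it passed without Bala drought array 2 (0.046). Bala was lower in control (-0.88, adjusted p = 0.017), a call lost without Azucena control array 2 (0.082) or Bala control array 2 (0.058) or 3 (0.053).

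NIP2-2, also listed as Lsi6, is known as a silicon transporter that unloads silicon from the xylem in rice shoots. It had the largest fall of the aquaporin genes tested in Azucena. It read 512.9, 840.4 and 938.3 in Azucena control and 94.4, 133.2 and 87.3 in drought. In Bala it read 356.2, 407.0 and 319.2 in control and 125.6, 98.2 and 100.6 in drought. Every control array stood above every drought array, the Azucena controls stood above the Bala controls, and the drought groups overlapped. NIP2-2 fell 6.33-fold in Azucena (log2 -2.66 ± 0.21, adjusted p = 6.8e-08) and 3.04-fold in Bala (-1.60 ± 0.21, adjusted p = 1.7e-05).

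The interaction for NIP2-2 was 1.06 ± 0.30 (adjusted p = 0.028) and was lost without any of 7 arrays, with adjusted p from 0.057 to 0.079. Those were Azucena control arrays 2 and 3, Bala control arrays 1 and 3, Azucena drought arrays 1 and 3 and Bala drought array 1. In control Bala was 2.02-fold lower (log2 -1.01, adjusted p = 0.0014), and under drought the difference was 0.05, with a 95% interval from -0.39 to 0.49. The only NIP2-2 probe set may share probes with other genes.

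NIP2-1, also listed as Lsi1 and known as the silicon influx channel of rice roots, rose in Azucena. It read 205.5, 164.7 and 147.7 in Azucena control and 300.4, 299.9 and 310.4 in drought. The Bala readings were 124.2, 157.0 and 87.3 in control and 193.3, 191.5 and 96.9 in drought. The Azucena drought arrays were the highest of the 12 and varied little. The rise was 0.77 ± 0.23 in Azucena (adjusted p = 0.019), lost without Azucena control array 2 (0.056) or 3 (0.082) or Azucena drought array 3 (0.051). In Bala the change was 0.32 ± 0.23 (adjusted p = 0.33), called without Bala drought array 3 (0.62, adjusted p = 0.033). The responses were not shown to differ (-0.45, 95% interval from -1.14 to 0.24), and Bala was lower under drought by 1.88-fold (log2 -0.91, adjusted p = 0.0079). NIP2-1 and NIP2-2, both silicon channels, thus moved in opposite directions in Azucena.

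SIP1-1 fell in both cultivars. It read 772.1, 980.4 and 687.0 in Azucena control and 474.7, 577.9 and 523.0 in drought. Bala values were 625.0, 898.7 and 668.2 in control and 509.7, 453.6 and 536.5 in drought. All drought arrays lay below all control arrays. The change was -0.60 ± 0.17 in Azucena (adjusted p = 0.011) and -0.52 ± 0.17 in Bala (adjusted p = 0.024), and their difference was 0.09, with a 95% interval from -0.41 to 0.58. The Azucena call was lost without Azucena control array 2 (0.072) or Azucena drought array 1 (0.051), and the Bala call without Bala control array 2 (0.13) or Bala drought array 1 (0.054) or 2 (0.10). SIP2-1 ranged from 157.8 to 275.5 over all arrays and was called in no comparison.

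**Figure D4:**
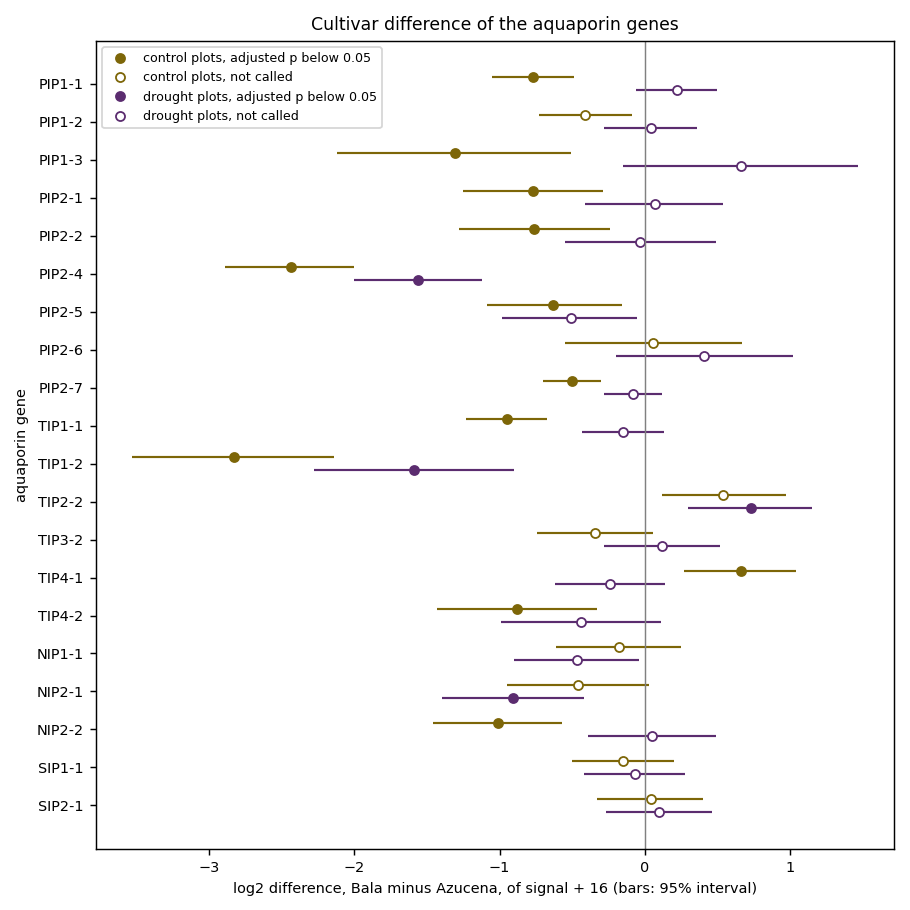
Log2 difference between cultivars (horizontal axis, Bala minus Azucena on the log2(signal + 16) scale) of the 20 tested aquaporin genes in control and in drought, with 95% confidence intervals from limma. In control 11 genes were called lower in Bala and TIP4-1 higher, and in drought PIP2-4, TIP1-2 and NIP2-1 were lower and TIP2-2 higher.

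Markers of other leaf cells moved with some of these genes. The 4 vascular and secondary wall genes measured, CESA4, CESA7 and CESA9 (cellulose synthases of secondary walls) and SUT1 (a sucrose transporter), all rose in Bala, and none was called in Azucena. Their summed signal was 238 to 384 in Azucena control, 373 to 415 in Azucena drought, 114 to 170 in Bala control and 447 to 620 in Bala drought. In Bala this sum was low in control and high in drought, as were the PIP1 genes, PIP2-1 and the TIP1 genes, and the part of these cells in those changes was not tested. SUT1 was above background on all 12 arrays and CESA9 on 7. The summed mesophyll signal fell in both cultivars, from 30080 to 36144 in control to 24311 to 26840 in drought in Azucena, and from 33284 to 38294 to 26724 to 27861 in Bala. Of the 8 mesophyll genes 5 fell in Azucena and 4 in Bala, and the part of these cells in the falls of NIP2-2, TIP4-1 and SIP1-1 was not tested. NIP2-2, known from unloading of the xylem, fell in both cultivars. The 4 vascular and secondary wall genes moved differently, with rises in Bala and no call in Azucena. Of 4 seed, 4 anther and 3 dividing cell markers, 2, 2 and 3 exceeded background on no array. The seed markers GLUA2 and RAG2 exceeded it on all 12 arrays, and the anther markers RPP17-1 and C4 on 6 each. In each cultivar 1 root, 1 seed and 1 anther marker fell and 1 anther marker rose.

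As a check of the treatment, 8 genes known to rise with water loss or abscisic acid, such as RAB21 and other dehydrin-type genes, were read, and 8 rose in Azucena and 7 in Bala, where salT was not called (0.88, adjusted p = 0.22). Among proton pumps of the vacuolar and plasma membranes, whose gradients drive solute transport across the membranes that carry TIP and PIP channels, VATP-P1, a subunit of the vacuolar ATPase, was the one matched by name. It changed by 0.27 in Azucena (adjusted p = 0.19) and rose by 0.52 in Bala (adjusted p = 0.0087).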

How the data were processed

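The authors deposited 1 linear signal intensity per probe set and array, made with MAS5 per the submitters' processing notes. Not given in the sources used here are the scaling target, the version of the software and any detection calls. Per the labels' protocols, total RNA was extracted with Trizol and 6 µg was biotin-labelled. Groups came from the cultivar and stress labels, replicate numbers from the biological replicate label, and 0 per-sample columns were left unused. Of 57381 probe sets, 22436 had 1 gene in the platform's table, 95 several and 34850 were not listed. Names came from the RefSeq gene table (assembly ASM3414082v1), which was also used for gene order. No sequences are shown.

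Values were analysed as log2(signal + 16) with limma 3.58.1 in R 4.3.3 (lmFit, eBayes with a mean-variance trend, 1 mean per group over 12 arrays, 5 contrasts). The 33476 probe sets above their array's median on at least 3 arrays were tested, without 123 controls, with Benjamini-Hochberg adjustment across all of them. Fold values are on this scale and understate changes of dim genes. Where 1 group was at background, the fold is a lower bound against it. Background differed between groups, at 19.6 to 28.3 in Azucena control and 13.4 to 18.5 in Bala control. Bounds between those groups include that difference. The probe set with the highest mean stood for a gene with several, and other probe sets were given where they disagreed. Every member was accounted for, and genes called in any comparison have all arrays printed. The members and marker lists were chosen with earlier results of these data known, and 3 marker names carried by 2 genes each were left out. In simulated data with 200 of 33476 probe sets changed, the Azucena contrast recovered 62% at a log2 change of 1 and 96% at 2. There were 10 false calls. The simulated share of changes was far below the 35.6% of genes called in Azucena, so this recovery need not hold for these data. Alternatives covered scaling, pseudocounts of 4 and 64, the filter, the trend, the choice of probe set, a replicate block and each array left out. Tables and plots used the R package data.table (1.17.8), Python 3.11.15, pandas 2.3.3 and matplotlib 3.10.9.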

Additional observations from a re-analysis of the deposited data

Results flagged for a closer look

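The drought response of 5 aquaporin genes differed between the cultivars by the interaction term of the limma fit. The values are the log2 change in Bala minus that in Azucena. It was 0.99 for PIP1-1 (adjusted p = 0.0024), 1.98 for PIP1-3 (0.025), 0.80 for TIP1-1 (0.01), 1.06 for NIP2-2 (0.028) and -0.90 for TIP4-1 (0.032). For PIP1-1, PIP1-3 and TIP1-1 the Bala change was a rise and the Azucena change was not called. NIP2-2 fell in both, less in Bala, and TIP4-1 fell in both, more in Bala. The calls of PIP1-3, NIP2-2 and TIP4-1 were lost under several alternatives, including single arrays left out. That of TIP1-1 was lost with the mean of all probe sets of a gene (adjusted p = 0.063). Over all genes tested 15% were called in this comparison, against 25% of the aquaporin genes.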

How the results depend on the processing

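Over 20 genes and 5 comparisons, 39 of 100 results were called. None of these 39 changed direction under any alternative, and 16 lost their call under at least 1, 15 of them with 1 array left out. Of the others, 16 gained a call. With 1 array left out the count of rises in Azucena (2) ran from 1 to 3, and that of interaction calls (5) from 2 to 7, with 2 to 6 higher and 0 to 1 lower. The control difference (12) ran from 6 to 14, with 6 to 12 lower and 0 to 2 higher, and the higher calls in drought from 0 to 1. Without the filter 2 of 25 interactions were called, 2 higher and 0 lower, and 7 genes were lower in Bala control. Over all 17905 genes, 1105 interactions were then higher and 563 lower, and 3097 genes were lower in Bala control. Without Bala control array 1, 2 of 20 interactions were called, beside 1117 higher and 909 lower over all 15605 genes. Under these 2 settings the aquaporin share of interaction calls did not exceed that over all genes. It lay near it in 3 other settings. With quantile normalization 4 of 20 were called, beside 1533 higher and 1442 lower of 15605 genes. Without Bala control array 3 it was 3 of 20, beside 1381 higher and 645 lower of 15605. Using the mean of all probe sets it was 3 of 20, beside 1443 higher and 743 lower of 15450. With the mean of all probe sets of a gene 3 interactions were called, 0 of them lower, 0 genes were higher in Bala control, and the drought difference of PIP2-1 turned from 0.07 to -0.68 (adjusted p = 0.0079), since all 3 of its probe sets then enter. Without a trend 0 interactions were lower. Without probe sets of possible sharing 17 genes were tested, since TIP2-2, TIP4-2 and NIP2-2 have no other. Then 0 genes were higher in Bala drought, and drought falls numbered 4 in Azucena and 2 in Bala, against 6 and 3. Quantile, median and spike-in scaling each gave 2 genes higher in Bala control, and so did the replicate block. With the replicate block 9, 10, 6, 14 and 4 genes were called in the 2 drought responses, the interaction, the control and the drought difference, against 8, 10, 5, 12 and 4. The calls it added were TIP1-2 in Azucena (adjusted p = 0.049), the PIP2-1 interaction (0.028) and the control differences of PIP1-2 (0.018) and TIP2-2 (0.04), and it ended none. Whether equal replicate numbers mean the same field block is not given, so the main fit left arrays unpaired. Deviations correlated above 0.1 in 2 of 18 same-numbered pairs and in 1 of 36 differently numbered pairs. Those 2 pairs joined Azucena drought to Bala drought, at 0.167 for replicate 1 and 0.218 for replicate 3, with 0.003 for replicate 2. Crossing replicates 1 and 3 of these groups gave -0.187 and -0.196. Whether these drought arrays shared blocks was not tested. Where the cause of a lost call is not given it was not tested. Signals near background limit PIP2-4, PIP2-5, TIP3-2, TIP4-2 and NIP1-1.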
